A study of Mus musculus with 16 samples.

Results

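The extracellular matrix genes Col1a1, Col1a2, Col3a1, Sparc, Timp1, Fn1, Lox, Mmp2, Postn and Thy1 were followed across 7 groups of mouse blood stem cells and pluripotent stem cells. Members were all probe sets that carried 1 of these 10 symbols and no other, which gave 20 probe sets for 10 genes, out of 34945 probe sets for 18193 genes on the arrays. Gene expression had been measured on 16 Affymetrix arrays, each prepared from 10000 cells, and every donor was wild type on a C57Bl6 background. Haematopoietic stem cells (HSC) were sorted from the marrow of male mice at steady state, with 3 arrays of young animals (3 to 4 months) and 3 of aged animals (21 to 24 months). Transplanted HSC were sorted from recipients of young or of aged marrow, with 2 arrays each; the labels give neither age nor sex for these. Induced pluripotent stem cells (iPSC) derived from young or aged blood cells had 2 arrays each. The 2 embryonic stem cell (ESC) arrays were of lines from different suppliers, Open Biosystems (array 1) and Primogenix (array 2). All iPSC and ESC had been grown on a layer of mouse embryonic fibroblasts, and the series' design text says that they were sorted before analysis. The labels call the HSC and iPSC arrays of a group biological replicates without saying whether they were separate animals or clones. Each p-value therefore reflects array-to-array spread, which may be technical in those groups. The ESC labels name no replicates, and the ESC spread is that between lines from different suppliers.

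Fibroblasts make and remodel the matrix of connective tissue. Type I collagen is assembled from the products of Col1a1 and Col1a2, and type III collagen from that of Col3a1, after which lysyl oxidase, encoded by Lox, cross-links the fibres. Fibronectin (Fn1), osteonectin (Sparc) and periostin (Postn) are secreted matrix glycoproteins, Mmp2 is a gelatinase that cuts denatured and basement membrane collagen, Timp1 inhibits such metalloproteinases, and Thy1 is a surface glycoprotein found on fibroblasts and on some T cells and stem cells. A feeder layer of embryonic fibroblasts supports pluripotent cells in culture and can leave RNA in a sample taken from it. Several of these genes, Fn1 and Sparc among them, are also transcribed by early embryonic and endoderm cells, so they do not mark feeder cells alone. No array held fibroblasts only, so no share of feeder RNA was estimated, and in bulk samples fewer cells of a type and less RNA per cell cannot be told apart.

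RefSeq promoter entries (GRCm38.p6) were present for Col1a2, Col3a1, Sparc, Timp1 and Postn. The 120 bases before the start of 4 of these genes are shown because the genes behaved differently across the groups. By their brightest probe sets, Timp1 and Sparc separated cultured cells from HSC on every array, whereas Col1a2 and Col3a1 did not. Separation was common, since 73.3% of all genes had no overlap between iPSC and steady-state HSC. Capitals mark matches to the motifs searched, on either strand.
Timp1 (chrX:20870046-20870165, plus strand): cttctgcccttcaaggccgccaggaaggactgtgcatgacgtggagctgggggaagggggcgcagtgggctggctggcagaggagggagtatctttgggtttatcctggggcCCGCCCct
Sparc (chr11:55420081-55420200, minus strand): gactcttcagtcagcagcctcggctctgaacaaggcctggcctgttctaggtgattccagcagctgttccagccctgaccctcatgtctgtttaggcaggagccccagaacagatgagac
Col1a2 (chr6:4505498-4505617, plus strand): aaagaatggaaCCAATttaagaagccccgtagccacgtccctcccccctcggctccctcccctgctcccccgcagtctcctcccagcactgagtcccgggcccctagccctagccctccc
Col3a1 (chr1:45311418-45311537, plus strand): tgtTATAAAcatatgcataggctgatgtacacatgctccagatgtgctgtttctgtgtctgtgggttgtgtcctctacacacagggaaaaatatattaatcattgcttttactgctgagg
The motifs were the TATA box TATAAA, the CCAAT box CCAAT, the Sp1-type GC box GGGCGG and the AP-1 site TGANTCA, and no match overlapped another in these promoters. In the 250 bases before the start, TATAAA was present in 12.4% of 32851 mouse promoters, CCAAT in 33.8%, GGGCGG in 32.7% and TGANTCA in 6.75%. Timp1 held 1 CCAAT and 1 GGGCGG, Col1a2 held 1 CCAAT and 2 GGGCGG, and Col3a1 held 1 TATAAA. Sparc held no match to these letters, and of the 2 Postn entries 1 held a TATAAA. A match is a description of the letters and not evidence of binding.

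The deposited values were put on the log2 scale, and each gene is given by its brightest probe set unless another is named. The brightness of a probe set depends on its own sequence, so levels were compared between arrays and not between genes. The median over all genes lay between 6.02 and 6.57 log2 on the 16 arrays, and the 25th percentile between 4.40 and 4.85. Differences were tested with limma over all genes, and calls required an adjusted p (Benjamini-Hochberg) under 0.05. Genes below the 25th percentile of mean level in a fit were left out as too dim, which left 13645 genes in each fit. Col3a1 was too dim for every fit, Lox was tested among the iPSC and ESC arrays only, and Postn was too dim for the HSC fit. As a check of the labels, pluripotency markers had a mean level of 10.54 to 10.81 log2 on the 6 iPSC and ESC arrays and of 3.93 to 5.13 on the 10 HSC arrays, and blood identity markers had 5.18 to 5.38 and 9.72 to 10.99.

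**Figure D1:**
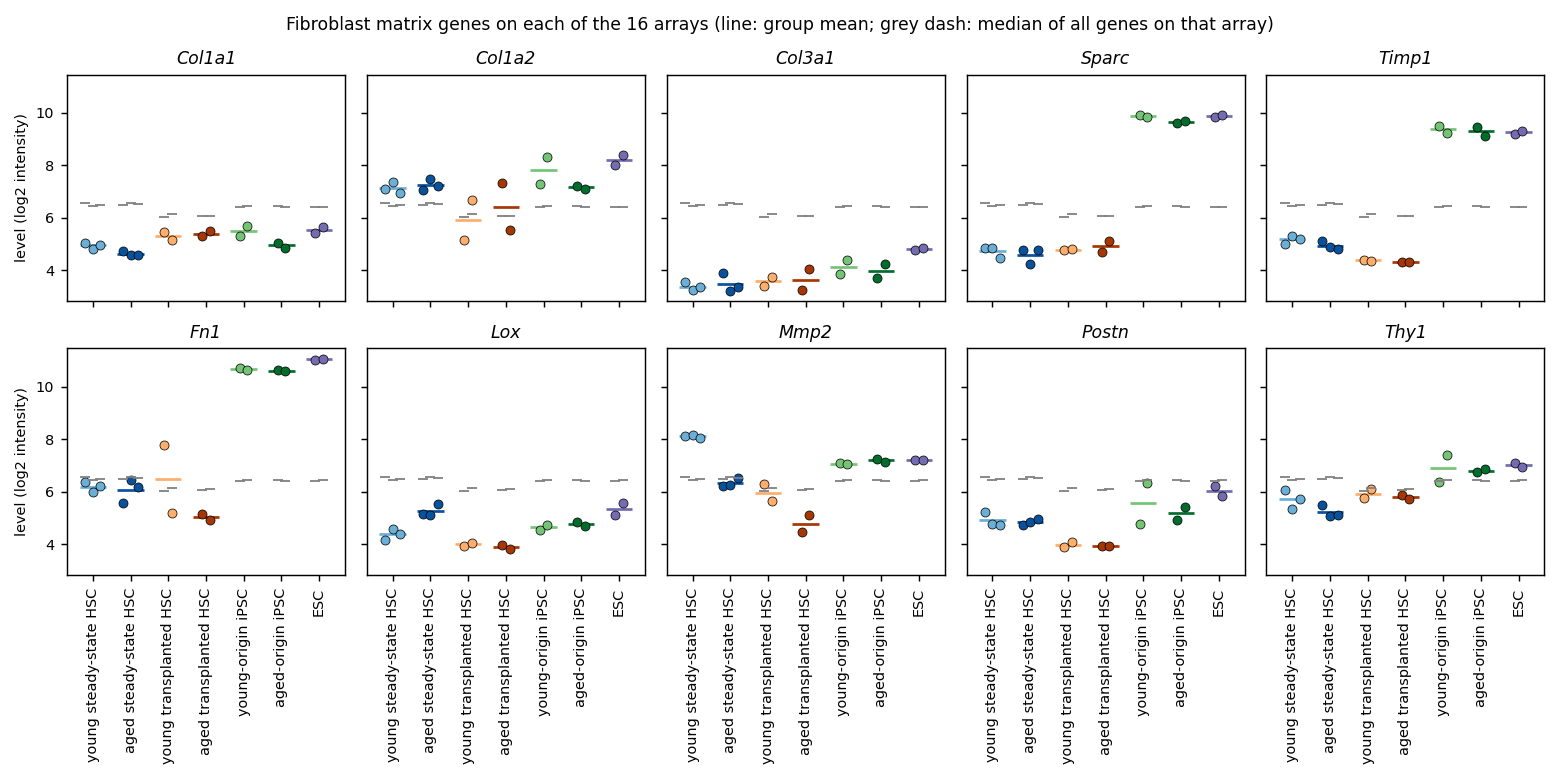
Level (log2 intensity, brightest probe set) of each matrix gene on each array; points are arrays, coloured lines are group means and grey dashes mark the median of all genes on that array. Sparc, Timp1 and Fn1 lie above 9 log2 on all 6 iPSC and ESC arrays and below 8 on all 10 HSC arrays, while Col1a1 and Col3a1 lie below the array median throughout.

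Col1a1 stayed below the median of all genes in cultured cells as well as in HSC. It read 5.31 and 5.70 log2 in young-origin iPSC, 5.06 and 4.86 in aged-origin iPSC, and 5.41 and 5.66 in ESC. In HSC it read 5.06, 4.83 and 4.97 (young steady-state), 4.75, 4.58 and 4.57 (aged steady-state), 5.46 and 5.17 (young transplanted) and 5.29 and 5.50 (aged transplanted). Levels of Col1a1 in transplanted HSC thus fell within the range of the iPSC and ESC arrays, and on every array 24.5% to 41.6% of genes were dimmer. The order of the group means was ESC, young-origin iPSC, aged transplanted, young transplanted, aged-origin iPSC, young steady-state and aged steady-state HSC, and the first 4 overlapped with their neighbours.

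Col3a1 also stayed below the array median throughout. It read 3.85 and 4.39 log2 in young-origin iPSC, 3.72 and 4.24 in aged-origin iPSC, and 4.79 and 4.87 in ESC. Both ESC arrays lay above all 14 others, which ranged up to 4.39, with the HSC arrays between 3.21 and 4.06. Only 4.0% to 27.2% of genes were dimmer, so these readings may be close to background, and no detection call was given. The other Col3a1 probe set was dimmer still and did not set ESC apart. It read 2.87 and 3.26 in ESC, 2.79 to 3.08 in iPSC and 2.68 to 3.13 in HSC.

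Col1a2, the partner of Col1a1 in type I collagen, was above the array median in cultured cells and in steady-state HSC. It read 7.29 and 8.33 log2 in young-origin iPSC, 7.23 and 7.09 in aged-origin iPSC, and 8.03 and 8.40 in ESC. Steady-state HSC read 7.09, 7.37 and 6.93 (young) and 7.08, 7.48 and 7.21 (aged), so 3 of the 4 iPSC arrays were within the range of HSC. Among transplanted HSC the replicates disagreed, with 5.14 and 6.69 in young and 7.31 and 5.54 in aged HSC. A second Col1a2 probe set did not repeat this separation: it read 4.51 to 5.53 in iPSC, 5.25 and 6.17 in ESC and 4.73 to 5.42 in steady-state HSC. The remaining probe set read between 2.82 and 3.73 on all arrays.

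Fn1, Sparc and Timp1 were bright and even across the cultured cells. Fn1 read 10.70 and 10.65 log2 in young-origin iPSC, 10.63 and 10.59 in aged-origin iPSC, and 11.03 and 11.07 in ESC. Sparc read 9.91, 9.86, 9.62, 9.70, 9.85 and 9.92 on the same arrays in the same order, and Timp1 read 9.49, 9.25, 9.46, 9.13, 9.21 and 9.30. The 6 cultured arrays spanned 0.48 log2 for Fn1, 0.30 for Sparc and 0.36 for Timp1, against 0.84, 1.31 and 1.15 for Col1a1, Col1a2 and Col3a1. In HSC, Sparc ranged from 4.24 to 5.12 with a median of 4.76, Timp1 from 4.32 to 5.32 with a median of 4.86, and Fn1 from 4.94 to 7.80 with a median of 6.10. On these brightest probe sets no HSC array overlapped a cultured array for any of these genes. Such separation was common. Of all genes, 73.3% had no overlap between iPSC and steady-state HSC, and 75.4% had none between ESC and steady-state HSC. A second Sparc probe set separated HSC from cultured cells too, at 3.81 to 5.59 log2 in HSC and 7.09 to 7.53 in cultured cells. A further Sparc probe set did not, at 5.69 to 6.76 and 6.75 to 6.93, and was brighter than the first in HSC.

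Lox, the collagen cross-linker, was dim on every array. It read 4.54 and 4.74 log2 in young-origin iPSC, 4.86 and 4.68 in aged-origin iPSC, and 5.12 and 5.59 in ESC. Aged steady-state HSC reached the same height at 5.16, 5.12 and 5.55, above the 4.16, 4.58 and 4.40 of young steady-state HSC and the 3.82 to 4.06 of transplanted HSC.

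Mmp2 had its highest level not in cultured cells but in young steady-state HSC. It read 8.14, 8.15 and 8.04 log2 there, 6.23, 6.26 and 6.52 in aged steady-state HSC, 6.28 and 5.63 in young transplanted HSC, and 4.45 and 5.10 in aged transplanted HSC. In iPSC it read 7.10, 7.05, 7.26 and 7.15, and both ESC arrays read 7.20. The order was young steady-state HSC, then aged-origin iPSC, ESC and young-origin iPSC with their 6 arrays within 0.20 log2 of each other, then aged steady-state, young transplanted and aged transplanted HSC. Aged steady-state and young transplanted HSC overlapped, as did aged-origin iPSC and ESC, and no other neighbours did.

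Postn and Thy1 were uneven among the iPSC arrays. Postn, which encodes a matrix protein of wound and tumour stroma, read 4.78 and 6.33 log2 in young-origin iPSC, 4.93 and 5.43 in aged-origin iPSC, and 6.22 and 5.85 in ESC, with HSC between 3.88 and 5.24. Thy1 read 6.39 and 7.41 in young-origin iPSC, 6.75 and 6.87 in aged-origin iPSC, and 7.08 and 6.96 in ESC. HSC read between 5.06 and 6.09 for Thy1, below all cultured arrays, where 73.3% of all genes had no overlap between iPSC and steady-state HSC.

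Whether cultured pluripotent cells carried more of these transcripts than blood stem cells was asked on all 16 arrays. Sparc stood 34.5-fold higher in iPSC than in steady-state HSC (log2 5.11, SE 0.14, adjusted p = 3.28e-13), Fn1 22.6-fold (log2 4.50, SE 0.36, adjusted p = 3.62e-08) and Timp1 19.3-fold (log2 4.27, SE 0.12, adjusted p = 3.09e-13). Thy1 was 2.62-fold higher (SE 0.19 log2, adjusted p = 1.46e-05), and Col1a1 rose by much less, 1.36-fold (log2 0.44, SE 0.12, adjusted p = 0.00508). Col1a2 (log2 0.29, SE 0.34), Postn (0.48, SE 0.24, adjusted p = 0.0784) and Mmp2 (-0.08, SE 0.15) did not pass. Without young-origin array 1 Postn stood at 0.87. Postn was too dim for the HSC fit and entered this one only with the brighter iPSC and ESC arrays included. Its difference from HSC and its place among the genes tested are therefore not independent of the dim filter. On these brightest probe sets Sparc and Timp1 were dim in HSC, where no detection call was given. The size of their folds therefore rests on readings that may be close to background. Thus 5 of the 8 genes tested were higher and 0 lower, where 41.8% of all genes were called higher and 34.7% lower. The median over those 8 was 0.93 log2, against 0.17 over all genes. Whether Mmp2 was above or below HSC depended on the processing, since its value was 0.16 after quantile normalisation.

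In ESC the 5 genes called in iPSC were called as well, and so was Postn. Postn was too dim for the HSC fit and passed the filter here only with the brighter iPSC and ESC arrays included. Its call and its place in the count are therefore not independent of that filter. Sparc was 37.2-fold higher than in steady-state HSC (SE 0.18 log2), Fn1 30.0-fold (SE 0.45) and Timp1 18.3-fold (SE 0.15), all with adjusted p under 0.05 (6.61e-12, 2.8e-07 and 9.06e-12). Thy1 rose by 1.56 log2 (SE 0.24, adjusted p = 6.26e-05), Postn by 1.15 (SE 0.30, adjusted p = 0.00378) and Col1a1 by 0.74 (SE 0.16, adjusted p = 0.000796). Col1a2 stood at 1.02 (SE 0.43) with an adjusted p of 0.0506, at the edge of the threshold: it was called after quantile normalisation (1.18, adjusted p = 0.0273) and without any 1 of the transplanted arrays (adjusted p 0.018 to 0.0205). Mmp2 stood at -0.03 (SE 0.19). This was 6 of 8 tested genes higher and 0 lower, against 34.3% of all genes called higher and 31.3% lower, with a median of 1.35 log2 against 0.13. Postn lost its call without ESC array 1 (0.97, adjusted p = 0.0629). Both comparisons used the same HSC arrays and are not independent.

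**Figure D2:**
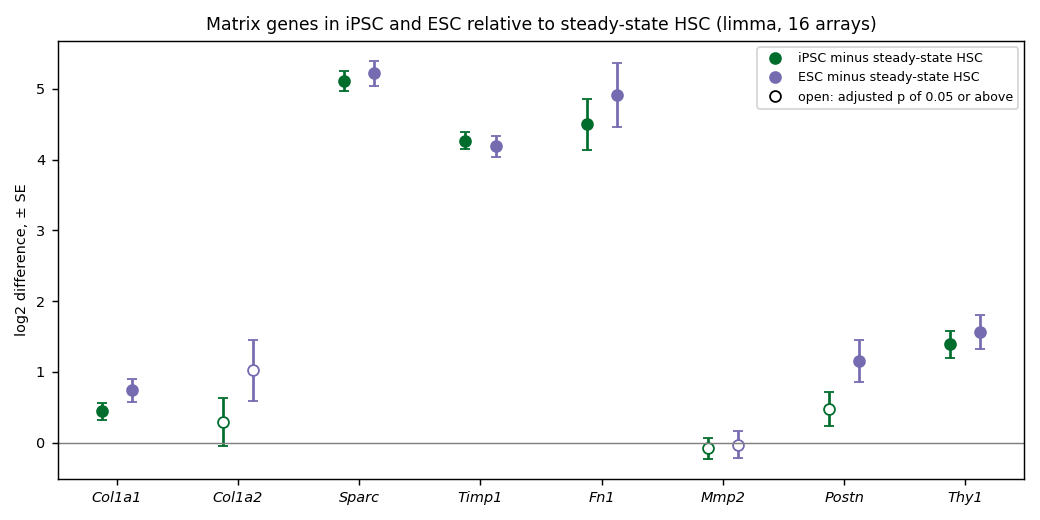
Log2 difference of iPSC (4 arrays) and ESC (2 arrays) from steady-state HSC (6 arrays) for the 8 matrix genes bright enough to be tested; bars are standard errors and open circles mark an adjusted p of 0.05 or above. Sparc, Timp1 and Fn1 lie between 4.19 and 5.22, and the other 5 genes at or below 1.56.

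Among the genes called, Col1a1, Sparc and Fn1 had further probe sets, which gave the same direction, and smaller sizes for Sparc and Fn1. Timp1, Thy1 and Postn had no second probe set. When every probe set was tested on its own, other Sparc probe sets stood 2.82 (SE 0.19) and 0.38 log2 (SE 0.12) above steady-state HSC in iPSC, a second Fn1 probe set 2.59 (SE 0.14) and a second Col1a1 probe set 0.56 (SE 0.13), and all had adjusted p under 0.05. In the same test a second Lox probe set was 0.38 higher (SE 0.12, adjusted p = 0.0159), while its brightest one was at -0.12 (SE 0.14, adjusted p = 0.455). The size of the Sparc difference therefore depends on the probe set read.

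The other genes of the matrix pathway were counted against the shares of all genes called in this comparison, 41.8% higher and 34.7% lower, and the counts for collagen processing and for proteases were near those shares. Of 14 collagen processing genes tested in iPSC against steady-state HSC, 6 rose and 4 fell: Pcolce, which enhances procollagen cleavage, rose by 5.79 log2 (SE 0.15) and the prolyl hydroxylase subunit gene P4ha2 by 2.13 (SE 0.15), whereas P4ha1, a second such subunit, fell by 1.84 (SE 0.17). Among 9 tested genes of gelatinases and their inhibitors, 4 rose, Timp1 included, and 3 fell. Timp2, the inhibitor that also helps activate Mmp2, fell by 3.00 log2 (SE 0.18), opposite to Timp1, and the stromelysin gene Mmp11 rose by 2.36 (SE 0.19). Of 3 lysyl oxidase relatives tested, Loxl1 (log2 1.02, SE 0.20) and Loxl4 (0.32, SE 0.13) rose. On the HSC arrays alone, 12 collagen processing genes and 2 lysyl oxidase relatives passed the dim filter. Some genes of these lists therefore entered through the cultured arrays, and their counts are not independent of that filter. Of 10 matrix receptors 5 rose and 5 fell, with the integrin genes Itga4 (-5.75), Itgb3 (-5.37) and Itgb1 (-2.47) the ones of smallest p. Each of these named genes had an adjusted p under 0.05 in limma.

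Genes of other fibroblast and stromal products were counted in the same way. Of 19 such genes tested, 12 rose and 5 fell in iPSC against steady-state HSC, where 41.8% of all genes rose and 34.7% fell. In ESC 11 rose and 5 fell, where 34.3% of all genes rose and 31.3% fell. Their medians were 0.64 and 0.51 log2, against 0.17 and 0.13 over all genes. Only 15 genes of this list passed the dim filter on the HSC arrays alone. Some of the 19 therefore entered through the cultured arrays, so these counts and medians are not independent of that filter. The matricellular gene Ccn2 rose most by p (5.48 log2 in iPSC, 5.41 in ESC), and Col5a2, a minor fibrillar collagen, stood 2.52 higher in ESC. Tgfbi fell by 3.41 log2 and Fap, the fibroblast activation protease, by 3.22 in iPSC. Some genes of this list, picked after their values were seen, were dim in culture. On the 6 cultured arrays Pdgfra read 4.41 to 4.86 log2, Prrx1 3.99 to 4.53, Cdh11 3.46 to 4.48 and Lum 3.57 to 3.91. These levels lay around or below the lower quartile of genes on those arrays (4.74 to 4.85). Others were brighter, with Dcn at 5.78 to 6.50 and Col5a2 at 5.73 to 7.18. Of 31 measured genes on that list, 5 to 9 lay below that quartile on each cultured array, against 11 to 13 on the steady-state HSC arrays. Their summed intensity was 4267 to 5955 in iPSC, 5140 to 5690 in ESC, 4811 to 5238 in steady-state HSC and 6539 to 7438 in transplanted HSC. By this sum, to which the brightest genes add most, the cultured arrays overlapped steady-state HSC and lay below transplanted HSC. The mean log2 level of the same genes was instead higher in culture. It was 5.95 to 6.22 in iPSC and 6.22 to 6.24 in ESC, against 5.45 to 5.68 in steady-state and 5.18 to 5.34 in transplanted HSC.

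Genes of basement membrane and early endoderm moved both ways in iPSC. Of 9 tested, 6 rose and 2 fell, where 41.8% of all genes rose and 34.7% fell, with the laminin genes Lamb1 6.08 log2 higher (SE 0.13) and Lama1 4.14 higher (SE 0.12), and the laminin-binding gene Nid1 2.57 higher (SE 0.15). The genes that fell were those of the basement membrane collagen chains, Col4a1 (-2.22, SE 0.18) and Col4a2 (-2.12, SE 0.22). The median over these 9 was 1.00 log2, against 0.17 over all genes. On the HSC arrays alone only 6 genes of this list passed the dim filter. Some of the 9 therefore entered through the cultured arrays, and the count and median are not independent of that filter. In ESC, Lamb1, Lama1 and Nid1 stood 6.04, 3.88 and 2.55 above steady-state HSC, and Col4a1 and Col4a2 at -2.34 and -2.05. Whether any of these transcripts came from feeder cells or from the pluripotent cells was not tested.

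**Figure D3:**
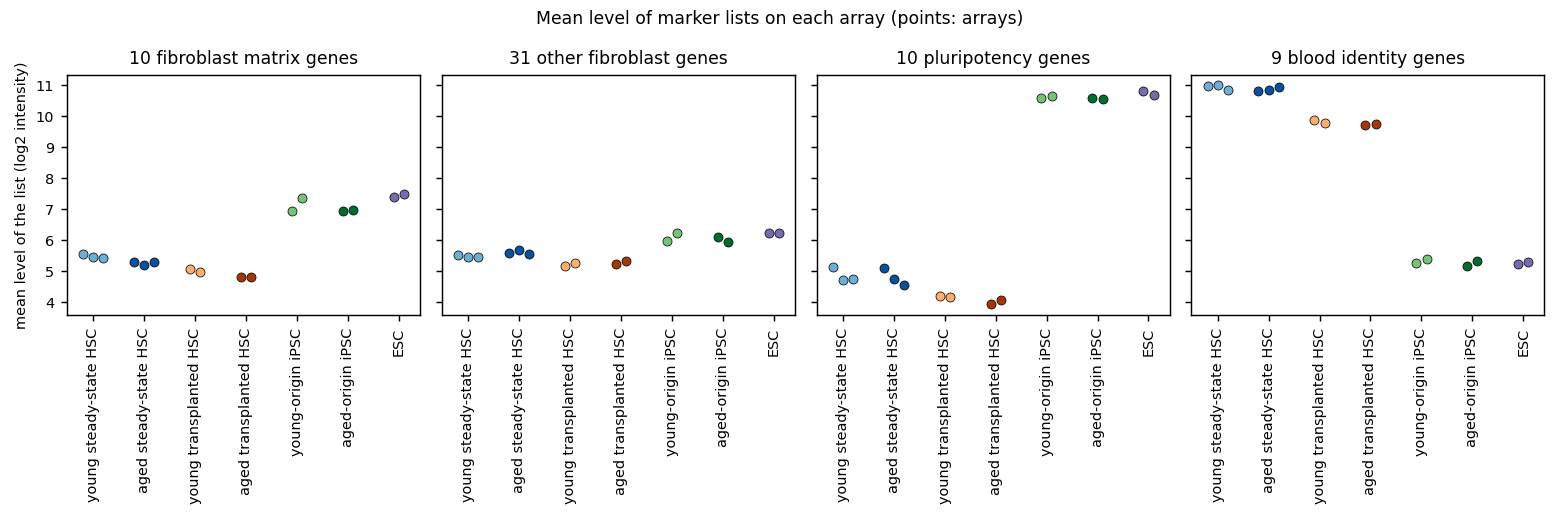
Mean level (log2 intensity) of the 10 matrix genes and of lists of other fibroblast, pluripotency and blood identity genes on each array; points are arrays. The matrix genes average 6.94 to 7.48 on iPSC and ESC arrays and 4.80 to 5.56 on HSC arrays, and the other fibroblast genes 5.95 to 6.24 and 5.18 to 5.68.

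Whether iPSC and ESC, grown on the same kind of feeder, differed in these genes was asked on their 6 arrays. No member was called among the 9 tested with limma, at a background of 0.044% of all genes higher and 0.066% lower in iPSC. Unadjusted p was under 0.05 for 3 members, all lower in iPSC: Lox (log2 -0.65, SE 0.15, adjusted p = 0.199), Fn1 (-0.41, SE 0.10, adjusted p = 0.219) and Col1a2 (-0.73, SE 0.24, adjusted p = 0.29). Both ESC arrays exceeded all 4 iPSC arrays for Fn1, Lox and Col3a1, where 23.8% of all genes had no overlap between the groups. A second Fn1 probe set repeated this (6.34 to 6.60 log2 in ESC, 5.82 to 6.25 in iPSC). The other probe sets of Lox (3.27 to 3.58 against 3.35 to 3.56, and 4.82 to 4.84 against 4.69 to 4.82) and of Col3a1 (2.87 to 3.26 against 2.79 to 3.08) overlapped. Postn (-0.67, SE 0.35) and Col1a1 (-0.30, SE 0.14) lay on the same side, and Timp1 on the other (0.08, SE 0.13). The median over the 9 genes tested was -0.30 log2, against 0.00 over all 13645 genes, of which 1737 had an unadjusted p under 0.05. With 4 arrays against 2 and 3 residual degrees of freedom, the standard errors of 0.10 to 0.35 set what could be seen. The macrophage lysosomal gene Cd68 was called in this comparison, 1.67 log2 lower in iPSC (SE 0.21, adjusted p = 0.0211), the 1 call among 8 tested macrophage and neutrophil markers; its part in the matrix values was not tested.

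Aged-origin and young-origin iPSC were compared in the same fit. No member was called (0 of 9), where limma called 0.00733% of all genes higher and 0% lower; 679 genes had an unadjusted p under 0.05, among them 2 members. These were Col1a1 (log2 -0.55, SE 0.17, adjusted p = 0.976) and Col1a2 (-0.65, SE 0.28, adjusted p = 0.976), both lower in aged-origin iPSC. A second Col1a1 probe set pointed the other way (0.09, SE 0.17) and a second Col1a2 probe set the same way (-0.42, SE 0.32). The values of the brightest probe sets depended on young-origin array 2: without it Col1a2 stood at -0.13 (SE 0.20) and Col1a1 at -0.35 (SE 0.18), and Postn and Thy1 turned from -0.37 and -0.09 to 0.40 and 0.42. Fn1 (-0.06, SE 0.12), Timp1 (-0.07, SE 0.15) and Mmp2 (0.12, SE 0.12) were close to 0.

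Young-origin iPSC array 2 stood apart from its replicate in the collagen group, as was noticed once the values were seen. The mean level of Col1a1, Col1a2 and Col3a1 was 5.48 and 6.14 log2 in young-origin iPSC, 5.34 and 5.40 in aged-origin iPSC, and 6.07 and 6.31 in ESC. Array 2 thus lay between the ESC arrays, and the other 3 iPSC arrays lay together. It was the highest of the 4 iPSC arrays for 5 of the 10 members (Col1a1, Col1a2, Col3a1, Postn and Thy1) and for 16 of 31 other fibroblast genes (51.6%), against 30.3% of all 13645 genes. Over the members its median difference from the other iPSC arrays was 0.29 log2, over the other fibroblast genes 0.21 and over all genes 0.02. Fn1, Sparc and Timp1 did not share this pattern. Among the 10 pluripotency genes the array was highest for 2 and, over all 6 arrays, lowest for 2. ESC array 2 was the highest of the 6 for Col1a2, Col3a1, Sparc, Fn1 and Lox. Whether the number of feeder cells differed between arrays was not tested.

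**Figure D4:**
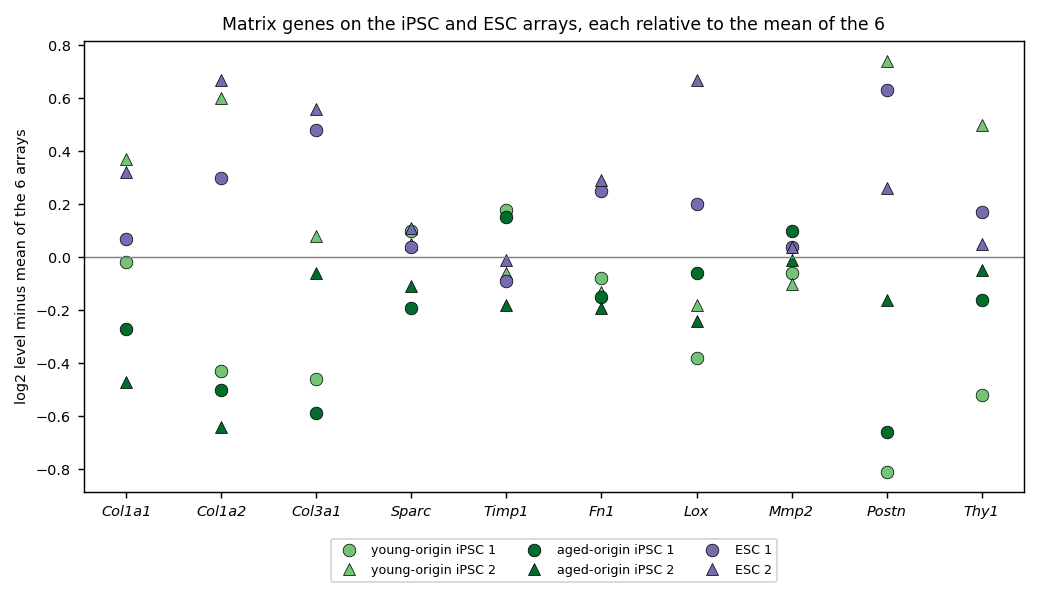
Level of each matrix gene on each iPSC and ESC array minus the mean of the 6 arrays (log2); circles are array 1 and triangles array 2 of each group. Young-origin iPSC 2 and the ESC arrays lie highest for Col1a1, Col1a2 and Postn, while all arrays lie within 0.29 of the mean for Sparc, Timp1, Fn1 and Mmp2.

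Genes that tracked the mean of the 3 fibrillar collagens over the 6 iPSC and ESC arrays were ranked by Pearson r among 273 genes that ranged over at least 1 log2. The nearest were Cpe, a peptide-processing enzyme gene (0.978), Timp2 (0.976), the tissue factor gene F3 (0.959), Setmar (0.893) and Mgp, which encodes the matrix Gla protein (0.842). Timp2 read 5.98 and 6.80 log2 in young-origin iPSC, 6.09 and 6.16 in aged-origin iPSC, and 6.75 and 7.02 in ESC. These coefficients describe 6 arrays, 3 of them with high collagen readings, and the genes were picked for their likeness. Over all 16 arrays the nearest of 12602 genes were Pifo (0.868), Mrc2 (0.861), Kat5 (0.850), Col5a2 (0.847) and Degs1 (0.845). Those arrays fall into HSC and cultured cells, and the likeness within each class was not computed.

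In HSC the question was whether age changed these genes. In steady-state HSC Mmp2 fell 3.43-fold from young to aged animals (log2 -1.78, SE 0.22, adjusted p = 0.00341 in limma). The young mean was 8.11 ± 0.06 log2 and the aged mean 6.33 ± 0.16 (SD over 3 arrays). The 3 aged arrays lay more than 1.5 log2 below the 3 young ones. A second Mmp2 probe set fell by 1.69 (SE 0.21), from 6.96, 7.07 and 7.15 to 4.93, 5.62 and 5.56, with an adjusted p of 0.00661 when every probe set was tested. This was 1 of 7 tested members lower and 0 higher, at a background of 0.22% of all genes lower and 0.96% higher. Mmp2 kept its call in each alternative run, with adjusted p from 8.13e-05 to 0.0482.

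The remaining members did not pass. Thy1 stood 0.49 lower in aged steady-state HSC (SE 0.22, adjusted p = 0.789), Col1a1 0.32 lower (SE 0.16, adjusted p = 0.955), and Timp1, Sparc, Fn1 and Col1a2 were within 0.23 of 0. Lox was too dim for the main test. Its brightest probe set rose by 0.89 log2 (SE 0.19, adjusted p = 0.0993 in limma) when all probe sets were tested singly. It was called when no dim filter was used or only the 6 steady-state arrays were fitted. Other Lox probe sets differed less between young and aged means, 3.25 and 3.40 for one, 4.29 and 4.47 for another.

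Among the partners of Mmp2, 1 changed with age. Mmp14, the membrane protease that activates pro-Mmp2, rose by 1.40 log2 (SE 0.23, adjusted p = 0.0166), from 6.50, 6.78 and 6.57 to 8.16, 7.91 and 8.0. It and Mmp2 were the only 2 of 9 tested genes of this group called, and the inhibitors Timp1, Timp2, Timp3 and Reck were not. Of all genes, 0.96% were called higher and 0.22% lower with age in steady-state HSC. Fap rose by 2.80 (SE 0.37, adjusted p = 0.00456), the 1 call among 15 other fibroblast genes tested, and the integrin gene Itgb3 by 1.55 (SE 0.29, adjusted p = 0.0319). Among markers of other marrow cells, the summed intensity of 9 stromal markers was 4716 to 5519 in young and 5658 to 6239 in aged steady-state HSC, while their mean level overlapped (5.74 to 6.21 and 5.61 to 6.11 log2) and the 6 tested differed by -0.16 (Sp7) to 0.20 (Angpt1) with no call. That of 6 endothelial markers was 1040 to 1398 and 1650 to 2032, with Cldn5 (log2 2.61) and Kdr (1.45) called higher with age. The part of these markers in the fall of Mmp2 was not tested.

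**Figure D5:**
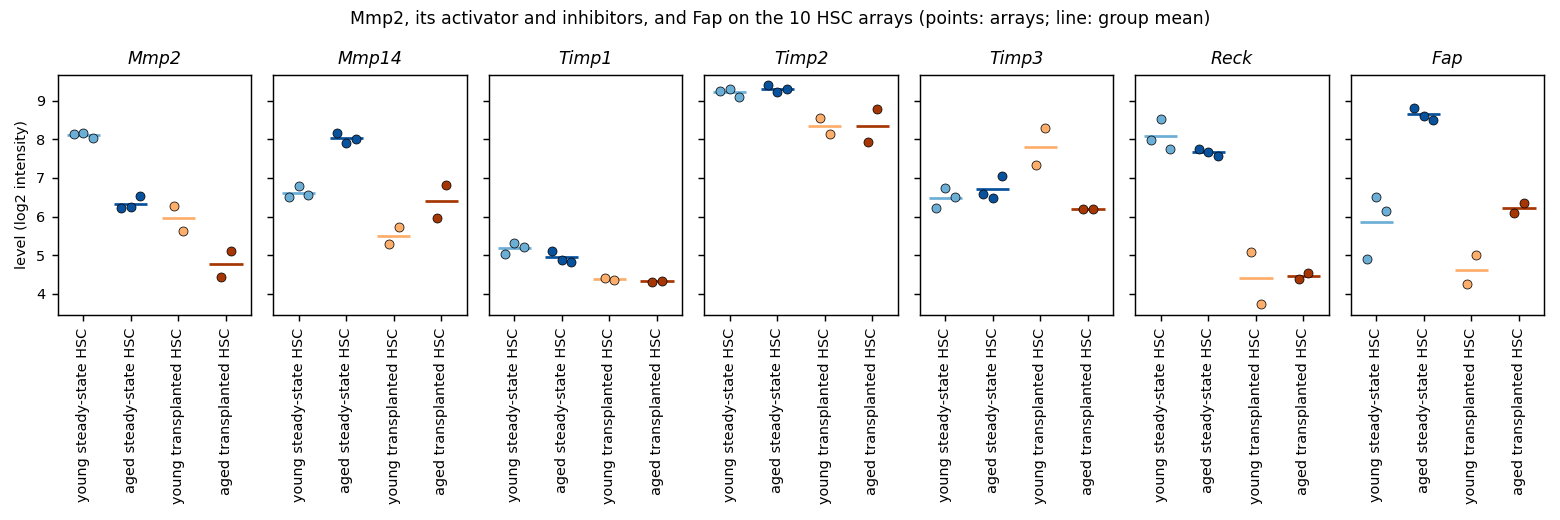
Level (log2 intensity) of Mmp2, its activator Mmp14, the inhibitors Timp1, Timp2, Timp3 and Reck, and of Fap on the 10 HSC arrays; points are arrays and lines group means. In steady-state HSC, Mmp2 is lower and Mmp14 and Fap are higher in all 3 aged than in all 3 young arrays. Of all genes, 18.2% had no overlap between these groups.

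After transplantation the age difference of Mmp2 pointed the same way without passing. It was lower by 1.18 log2 in HSC from aged marrow (SE 0.27, adjusted p = 0.074), with 4.45 and 5.10 against 6.28 and 5.63. The arrays did not overlap, which held for 31.7% of all genes in this comparison. None of the 7 tested members was called by limma, at a background of 0.55% of all genes higher and 0.799% lower, and 2 had an unadjusted p under 0.05, Mmp2 and Fn1. Fn1 stood 1.45 lower (SE 0.64, adjusted p = 0.324), a value that turned on 1 array: it read 7.80 on young transplanted array 1 and 5.18, 5.15 and 4.94 on the other 3. A second, dim Fn1 probe set did not repeat this, with means of 3.32 in young and 3.49 in aged transplanted HSC. It read 3.61 on young transplanted array 1 and 3.03, 3.33 and 3.66 on the other 3. Without that array Fn1 stood at -0.14 (SE 0.33), and without young transplanted array 2 both Fn1 (-2.76, adjusted p = 0.00191) and Mmp2 (-1.51, adjusted p = 0.0101) were called, with a lone array assumed to vary like the other groups. Csf1r, the macrophage growth factor receptor gene, read 7.95 on that same array, 5.75 on its replicate, and 3.21 and 3.27 in aged transplanted HSC. The summed intensity of the 10 macrophage and neutrophil markers was 2145 there and 1467 to 3040 over the 4 arrays, and their part in Fn1 was not tested. Timp3 fell with age in transplanted HSC (log2 -1.62, SE 0.32, adjusted p = 0.0416), the 1 call of 9 in the protease group, and Mmp14 stood 0.89 higher (SE 0.28, adjusted p = 0.174).

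The age effects of the 2 HSC settings were then subtracted. For Mmp2 the difference, transplanted minus steady-state, was 0.60 log2 (SE 0.35, adjusted p = 0.647), and for Fn1 -1.34 (SE 0.83, adjusted p = 0.669). The Fn1 value turned on the young transplanted arrays: it was -0.03 without array 1 and was called at -2.65 (adjusted p = 0.00923) without array 2. No member was called of 7 tested in limma, and 0 had an unadjusted p under 0.05; over all genes 0.0366% were called above 0 and 0.0879% below. The Mmp2 difference between settings did not pass the test, which does not show that both effects were equal.

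In iPSC the Mmp2 level did not follow donor age past the test: the difference was 0.12 log2 (SE 0.12) against -1.78 in steady-state HSC. The difference between both, a comparison added once the values had been seen, was 1.90 (SE 0.30, adjusted p = 0.00839). It was the only member called of 8 tested, where 0.0513% of all genes were called above 0 and 0.425% below. Leaving out aged-origin array 1 or either young-origin array ended the call (adjusted p 0.0742, 0.0606 and 0.0693), with values between 1.85 and 1.92. The difference for Fap was -3.15 log2 (SE 0.51, adjusted p = 0.00972), and that for Mmp14 was -1.50 (SE 0.31, adjusted p = 0.0562).

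Among the members tested, Mmp2, Timp1 and Col1a2 were lower and Col1a1 higher after transplantation. Against steady-state HSC, the 4 transplanted arrays had 3.62-fold less Mmp2 (log2 -1.86, SE 0.18, adjusted p = 6.51e-06) and 1.63-fold less Timp1 (log2 -0.71, SE 0.12, adjusted p = 0.000474), whereas Col1a1 was 1.47-fold higher (log2 0.56, SE 0.13, adjusted p = 0.00259). Col1a2 was 1.02 log2 lower (SE 0.36, adjusted p = 0.0279), a call that ended without young transplanted array 1 (-0.64, adjusted p = 0.114), without aged transplanted array 2 (-0.58, adjusted p = 0.129), and without array 2 of either steady-state group. These were 1 of 7 tested members higher and 3 lower, where 19.8% of all genes were higher and 50.1% lower. The median over all genes was -0.46 log2, and -0.66 when each array was centred on its median. After such centring Mmp2 stood at -2.06, Timp1 at -0.91 and Col1a1 at 0.35 (adjusted p = 0.0316), and all 4 calls held. When every probe set was tested, Lox (-0.88, SE 0.15, adjusted p = 0.000472) and Postn (-0.93, SE 0.14, adjusted p = 0.000265) were also lower, and 2 further Sparc probe sets were called in opposite directions (0.83 and -0.67). Fn1 was -0.37 (SE 0.42), but was called at -1.03 (adjusted p = 0.00114) without young transplanted array 1. Sex, age and the handling of recipients cannot be told apart from transplantation in these groups.

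Collagen processing genes were lower in transplanted HSC, with 10 of 12 tested called lower and 0 higher. Of all genes, 50.1% were called lower and 19.8% higher. The collagen chaperone gene Serpinh1 fell by 2.91 log2 (SE 0.17), the disulfide isomerase gene P4hb changed by -2.50 (SE 0.18) and Bmp1, which cleaves procollagen, by -2.28 (SE 0.19). Their median was -1.17 log2, against -0.46 over all genes. The protease group had 6 of 9 lower and 0 higher against the same shares, a small count, with the membrane-anchored inhibitor gene Reck 3.44 lower (SE 0.25). Of 15 other fibroblast genes 4 rose and 7 fell, near the 19.8% and 50.1% of all genes, with Pdgfrb 1.43 and Vim 1.30 higher, and the smooth muscle actin gene Acta2 at -1.91. Of 6 stromal markers tested 4 were called lower, where 50.1% of all genes were, so this small count says little about the list. Their summed intensity was 1271 to 2035 against 4716 to 6239 in steady-state HSC, and its part in these values was not tested.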

How the data were processed

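The intensity values were used as the authors deposited them, 1 table of 45101 probe sets on 16 arrays, on a linear scale from 4.53 to 31493; their summarisation and normalisation are not given in the sources. RNA was extracted with a QIAGEN microRNeasy kit and labelled as cRNA by an Affymetrix protocol, per the labels. Values were put on the log2 scale with no pseudocount. Genes were named through a platform annotation: 34945 probe sets had 1 symbol, 932 several and 9160 none, and 18032 of 18193 genes matched a RefSeq table. Each gene was represented by its brightest probe set on average. Fits used limma 3.58.1 in R 4.3.3 on the 10 HSC arrays, the 6 iPSC and ESC arrays, or all 16 (6, 3 and 9 residual degrees of freedom), without genes below the 25th percentile, and were tested on simulated data. Replicate numbers were not used as pairs. The number of arrays, 2 or 3 per group, limits the precision. The genes and lists were chosen with earlier results of these data known. Named genes were the members, up to 3 called genes per list and comparison with the smallest p, and the 5 nearest in pattern; other genes were named after their values were seen. No array pair was identical (highest correlation across genes 0.995).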

Additional observations from a re-analysis of the deposited data

Results flagged for a closer look

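The age effect on Mmp2 differed between iPSC and steady-state HSC by 1.90 log2 (SE 0.30, limma adjusted p = 0.00839), as tested by the difference of both effects on 16 arrays. Mmp2 read 7.10 and 7.05 log2 in young-origin and 7.26 and 7.15 in aged-origin iPSC, against 8.14, 8.15 and 8.04 in young and 6.23, 6.26 and 6.52 in aged steady-state HSC. A second Mmp2 probe set gave 1.87 (SE 0.29, adjusted p = 0.012) when every probe set was tested. The comparison was chosen after the data had been seen, and over its alternatives the adjusted p ran from 0.000952 to 0.0809.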

How the results depend on the processing

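Of the member values recomputed under the alternatives, 1409 kept direction and side of the threshold, 36 changed sign, 22 gained and 10 lost a call; the causes were not tested. With quantile normalisation Mmp2 read 0.01 in iPSC minus ESC, 0.16 in iPSC and 0.15 in ESC minus steady-state HSC, and Fn1 0.02 in aged- minus young-origin iPSC. With probe sets averaged per gene Mmp2 read 0.03 and 0.13 in the same HSC comparisons, and Col1a2 -0.15 for age in transplanted HSC and -0.25 for the difference of age effects. Sparc read -0.02 in transplanted minus steady-state HSC with centred arrays, and Fn1 -0.01 with a pseudocount of 64 for the difference between iPSC and steady-state age effects. With a dim filter at the 50th percentile, members called were 2 (from 5) in iPSC and 3 (from 6) in ESC minus steady-state HSC and 2 (from 4) in transplanted minus steady-state HSC, since fewer genes were tested. Age calls in steady-state HSC were 2 with no filter or with only the 6 arrays compared, and in transplanted HSC 1 with all 16 arrays in one fit.

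With 1 array left out, members called ran from 0 to 2 for age in transplanted HSC, and from 0 to 1 for both differences of age effects. Values that changed sign ran from -0.01 to 0.16 (Timp1) and -0.42 to 0.09 (Thy1) in iPSC minus ESC; from -0.24 to 0.09 (Timp1), -1.15 to 0.40 (Postn) and -0.61 to 0.42 (Thy1) in aged- minus young-origin iPSC; and from -0.05 to 0.02 (Mmp2) in ESC minus steady-state HSC. For age they ran from -0.28 to 0.02 (Sparc) and -0.30 to 0.14 (Fn1) in steady-state HSC, and from -0.07 to 0.23 (Col1a1), -0.38 to 1.40 (Col1a2), -0.09 to 0.34 (Sparc) and -0.30 to 0.04 (Thy1) in transplanted HSC. Fn1 ran from -1.03 to 0.28 in transplanted minus steady-state HSC. Differences of age effects ran from -0.50 to 1.27 (Col1a2, transplanted) and, for iPSC, from -0.25 to 0.05 (Sparc), -0.01 to 0.33 (Timp1), -0.20 to 0.23 (Fn1), -1.08 to 0.47 (Postn) and -0.12 to 0.90 (Thy1).

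Deviations of same-numbered arrays correlated at -0.197 to 0.194 in steady-state, -0.159 in transplanted HSC and -0.051 in iPSC, so the numbers were taken as names. With the replicate number as a block, members called were 0, 0, 6, 6, 1, 0, 3 and 0 in the order iPSC minus ESC, aged- minus young-origin iPSC, iPSC, ESC, age in steady-state and transplanted HSC, transplanted minus steady-state HSC and their difference of age effects, and 0 (from 1) for the iPSC difference, where Mmp2 had an adjusted p of 0.0809. The block added a call for Postn in iPSC minus steady-state HSC (0.48, adjusted p = 0.0333) and ended that for Col1a2 in transplanted minus steady-state HSC (adjusted p = 0.0679). With the transplanted numbers crossed, an alternative added after seeing the data, they were 6 in iPSC and 7 in ESC minus steady-state HSC, 1 and 0 for age, 5 for transplanted minus steady-state HSC, and 0 and 1 for the differences.

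Over all genes, calls for age in steady-state HSC (161) ran from 78 to 415, and in transplanted HSC (184) from 0 with those 4 arrays alone to 1467 without young transplanted array 2. Calls in iPSC minus ESC (15) ran from 7 to 66, for the transplanted difference of age effects (17) from 0 to 723 and for the iPSC one (65) from 29 to 119. With every probe set tested, calls were 22760 (from 10429), 18534 (from 8955) and 22486 (from 9534) for iPSC, ESC and transplanted HSC against steady-state HSC, and 4 (from 1) in aged- minus young-origin iPSC.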
